A study of Mus musculus with 37 samples.

Results

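The clustered protocadherins are adhesion receptors encoded side by side in 3 gene clusters, alpha, beta and gamma. Of the 58 gene symbols of these clusters in the count table, the 42 with a summed count of 50 or more over all libraries are described here, out of 25239 genes in all. They comprise 19 beta genes, 12 gamma A genes, 7 gamma B genes and 4 genes of the C type (Pcdhac2, Pcdhgc3, Pcdhgc4 and Pcdhgc5), which close the alpha and gamma clusters. None of the 12 variable alpha genes reached 50 counts. The beta members were Pcdhb2 to Pcdhb11 and Pcdhb14 to Pcdhb22. The gamma A members were Pcdhga1 to Pcdhga12, and the gamma B members were Pcdhgb1, Pcdhgb2 and Pcdhgb4 to Pcdhgb8.

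Bulk RNA was sequenced from the hearts of E10.5 mouse embryos. The fathers carried Stra8-iCre, a Cre active in the male germ line, with a floxed Nipbl allele, and passed on either Nipbl Flox, described as a wild-type allele, or Nipbl FIN, a null allele. The mothers carried Isl1 Cre, which puts Cre into 1 Isl1 allele and removes its function. The 4 groups were wild-type (Nipbl +/+; Isl1 +/+, 10 libraries), Isl1 +/- with Nipbl +/+ (9), Nipbl +/- with Isl1 +/+ (9) and double heterozygous (Nipbl +/-; Isl1 +/-, 9). All 4 groups descend from this cross, so wild-type embryos may carry a Flox allele of Nipbl, and which embryos inherited Stra8-iCre is not stated. Nipbl is lost from the whole embryo, not from the heart alone. Loss of 1 NIPBL allele in people causes Cornelia de Lange syndrome, and Isl1 is a transcription factor of the second heart field.

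In neurons each cell expresses a small set of clustered protocadherins, and the proteins bind copies of themselves on neighbouring cells. Each alpha and gamma gene supplies 1 variable first exon, with its own promoter, that is spliced to constant exons shared by its cluster, whereas beta genes are single-exon genes without a shared constant part. Promoters are chosen through contacts with distant enhancers that depend on CTCF and on cohesin, the ring complex that Nipbl loads onto chromatin and that extrudes DNA loops. The beta enhancer lies beyond the gamma cluster. No sequences of these genes are shown.

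Libraries held between 23.4 and 51.0 M counts, with a median of 36.2 M. The number after IVF in the sample descriptions, here called the set, groups the libraries into 5 sets; set 1 held only wild-type and Isl1 +/- libraries and set 7 a single double-heterozygous library. Nipbl itself had 60.0 ± 10.1 CPM (counts scaled to the library's effective size, per 1 M; SD, n = 10) in wild-type and 61.5 ± 5.88 (n = 9) in Isl1 +/- hearts, against 39.3 ± 13.8 (n = 9) in Nipbl +/- and 38.1 ± 7.41 (n = 9) in double-heterozygous hearts. The library labelled Nipbl +/- replicate 2 went against its label, with 72.4 CPM of Nipbl, and lay apart from the other 36 libraries on the first principal component. It also had the lowest summed beta level of the series, so values without it are given where it sets a limit or moves a result. The library labelled double-heterozygous replicate 2, at 51.5 CPM, also lay inside the Nipbl range of the libraries with 2 alleles. As the only library of set 7 it does not bear on the tests below, which fit it exactly, but it is counted in the levels and in the counts of libraries. Isl1 had 7.37 ± 2.24 CPM (n = 10) in wild-type and 6.28 ± 1.76 CPM (n = 9) in Isl1 +/- hearts, a log2 difference of -0.20 (SE 0.18) with an adjusted p of 0.877 in edgeR, so its level did not separate these labels. Cardiomyocyte markers were abundant in every library, with a sum over 8 genes of 29782 to 43613 CPM in wild-type, 29982 to 42484 in Isl1 +/-, 29009 to 36240 in Nipbl +/- and 28480 to 39888 in double-heterozygous libraries. Below the wild-type mean were 5 of 10 wild-type, 7 of 9 Isl1 +/-, 9 of 9 Nipbl +/- and 8 of 9 double-heterozygous libraries.

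Levels of different genes were compared in wild-type hearts as CPM per kilobase of exon not shared with other genes of the clusters. Pcdhgc3, a C-type gene of the gamma cluster, stood far above the rest at 12.1 ± 6.42 CPM per kb (SD, n = 10). The other gamma genes had wild-type means from 0.121 (Pcdhgb8) to 0.910 (Pcdhga2) CPM per kb, with medians of 0.562 for gamma A and 0.412 for gamma B (0.255 and 0.254 per kb of total exon, with the beta median unchanged). Pcdhac2, the C-type gene of the alpha cluster, had 0.556 ± 0.280 CPM per kb. Beta genes were lower, with a median of 0.0676 CPM per kb over the 19 members, although the upper beta and lower gamma levels overlapped. The highest beta level was that of Pcdhb22, at 0.235 ± 0.0323, followed by Pcdhb20 at 0.225 ± 0.0723 and Pcdhb17 at 0.209 ± 0.0838, and these 3 did not differ beyond their spread. Pcdhb10 was lowest at 0.0106 ± 0.00906.

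**Figure D1:**
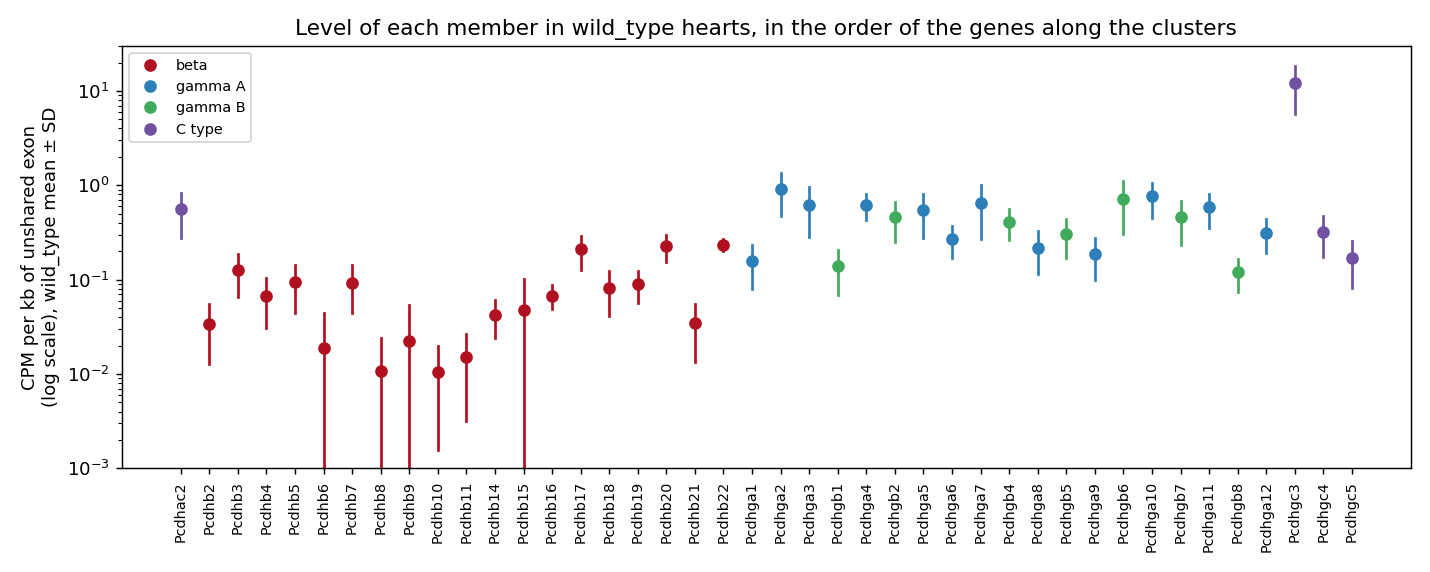
Mean level of each of the 42 members in the 10 wild-type libraries, as CPM per kb of unshared exon on a log axis, with bars of 1 SD cut at the lower edge of the axis, in the order of the genes along the clusters. Pcdhgc3 stands at 12.1 CPM per kb, and all beta genes lie at or below 0.235.

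The variable alpha genes had few counts. Their summed count over the 12 genes and all 37 libraries was 75, and the highest single gene had 19. Pcdhac1 had 1 count. A count of 0 over all libraries allows up to 0.00228 CPM, for counting error only, and 5 alpha genes (Pcdha1, Pcdha4, Pcdha6, Pcdha7 and Pcdha8) were at 0 in every library although Pcdhac2, with which they share the constant exons, had 2886 counts. Reads in the shared alpha exons were therefore not given to every alpha gene. Pcdha4 shares 96.5% of its 100-base exon windows with other annotated genes, which need not belong to the clusters. Of its 5768 exon bases, 2904 are shared with no other gene of the clusters. The other variable alpha genes with a known length share from 53.1% (Pcdha12) to 60.7% (Pcdha7). How far the counting set these low counts was not tested. The gamma A and gamma B genes share between 40.7% (Pcdhga12) and 64.0% (Pcdhga4) of their 100-base exon windows with other annotated genes. Pcdhgb8 had 0.301 CPM in wild-type hearts beside 40.9 CPM of Pcdhgc3, so reads in the shared gamma exons were not given to every gamma gene either. With these counts no alpha gene other than Pcdhac2 could be tested between genotypes.

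The summed level of the beta protocadherins, which was not tested, was lower in both groups with 1 Nipbl allele, and the tests of single genes follow. The summed level of the 19 beta members was 7.04 ± 1.67 CPM (SD, n = 10) in wild-type and 6.95 ± 1.73 (n = 9) in Isl1 +/- hearts, against 3.64 ± 1.16 (n = 9) in Nipbl +/- and 4.07 ± 1.02 (n = 9) in double-heterozygous hearts. Wild-type libraries ran from 4.32 to 8.83 CPM with a median of 7.67, and Isl1 +/- libraries from 4.87 to 9.87 with a median of 6.60. Nipbl +/- libraries ran from 1.15 to 5.13 with a median of 3.82 (from 2.83 without replicate 2), and double-heterozygous libraries from 2.48 to 6.09 with a median of 4.01. The groups thus overlapped at their edges, and 13 of the 18 libraries with 1 Nipbl allele lay below the lowest of the 19 libraries with 2. Without Nipbl +/- replicate 2 these were 12 of 17, and the Nipbl +/- mean was 3.96 ± 0.725 CPM (SD, n = 8). In bulk tissue, fewer cells that express a gene and less RNA per cell cannot be told apart.

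Tests were made gene by gene with edgeR's quasi-likelihood test in 1 fit of all 37 libraries, with the set as a term and Benjamini-Hochberg adjustment over 15046 genes. A gene was called at an adjusted p under 0.05. The term for set 7 fits its single library exactly, so tests of the double heterozygote rest on 8 of its 9 libraries. Of the 42 members 34 passed the count filter, among them 11 beta genes and all 23 gamma and C-type genes. The filter, which asked for more than 0.276 CPM in 9 libraries, bears on the beta genes. Pcdhb5, Pcdhb14, Pcdhb16 and Pcdhb18 were over that level in 11, 14, 12 and 15 of the 19 libraries with 2 Nipbl alleles and in 5, 4, 0 and 2 of the 18 with 1, so these 4 passed through the groups where they were high. The called genes Pcdhb17, Pcdhb19, Pcdhb20 and Pcdhb22 were over it in 10 or more libraries of either kind. Values of a fit without the filter, which takes in all 42 members, are given for the counts of calls and for the genes that passed in this way.

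Averaged over both Isl1 genotypes, 8 beta genes were lower in hearts with 1 Nipbl allele, namely Pcdhb5, Pcdhb14, Pcdhb16, Pcdhb17, Pcdhb18, Pcdhb19, Pcdhb20 and Pcdhb22. No member rose. In this comparison 4.02% of all tested genes were called (605), 1.36% lower (204) and 2.67% higher (401). Without the filter 7 of the 19 beta genes were called, the same ones less Pcdhb5, where 2.43% of all genes of that fit were called (509 of 20966), and 18 of 19 had a change below 0, with a median log2 change of -1.01 beside 0.01 over all its genes. Without Nipbl +/- replicate 2 the same 8 genes were called, with log2 changes between -0.94 and -1.44, and the share of all tested genes called was 6.93%. Without set 2, which held 9 libraries, Pcdhb16, Pcdhb20 and Pcdhb22 kept their calls, the other 5 lost theirs and Pcdhb7 was called. The share of all tested genes called in that fit is not given, nor are its log2 changes. The lost calls are therefore not read as lost changes.

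Pcdhb20 gave the smallest p of the members. Wild-type libraries ran from 0.436 to 1.25 CPM with a median of 0.754, and Isl1 +/- libraries from 0.332 to 1.21 with a median of 0.814. Nipbl +/- libraries ran from 0.0819 to 0.495 with a median of 0.339, the lowest being replicate 2 and the next 0.204. Double-heterozygous libraries ran from 0.183 to 0.417 with a median of 0.296. Of the 19 libraries with 2 Nipbl alleles, 17 lay above the highest of the 18 with 1, a count that is the same without that library. The averaged log2 change was -1.45 (SE 0.19, adjusted p = 5.12e-06), rank 14 of 15046 genes by p. It was -1.45 (SE 0.25, adjusted p = 0.00102) for Nipbl +/- and -1.42 (SE 0.26, adjusted p = 0.00138) for the double heterozygote, each against wild-type. It was -1.45 (SE 0.26, adjusted p = 0.00193) for the double heterozygote against Isl1 +/-.

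Pcdhb22, the last beta gene and the one with the highest level, had wild-type values between 1.11 and 1.64 CPM, with a median of 1.52, and Isl1 +/- values between 0.967 and 1.91, with a median of 1.30. In Nipbl +/- hearts it lay between 0.164 and 1.32, with a median of 0.727, and from 0.484 without replicate 2. Double-heterozygous values ran from 0.377 to 1.24, with a median of 0.636. Of each of these 2 groups 8 of 9 libraries were below the lowest wild-type library, and 7 of 8 of the Nipbl +/- libraries without replicate 2. The averaged log2 change was -1.11 (SE 0.18, adjusted p = 1.97e-04). Pcdhb22 shares 5.47% of its 100-base exon windows exactly with another annotated gene. No beta member shares more than 7.73% (Pcdhb21), so most beta reads can be told apart by position.

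Pcdhb16 had the largest fitted fall of the members, an averaged log2 change of -1.51 (SE 0.27, adjusted p = 6.38e-04), and -1.52 (SE 0.29, adjusted p = 0.00148) without the filter. It passed the filter only through the libraries where it was high, and its counts were few, from 7 to 20 per wild-type library and from 0 to 8 per Nipbl +/- library. Its wild-type values ran from 0.182 to 0.514 CPM and its Nipbl +/- values from 0 to 0.178, so these groups did not overlap. It was the only member of which this held, as it did for 0.0399% of all tested genes (6), and since the filter had let it in for its high groups nothing is read from that share. Double-heterozygous values lay between 0.0754 and 0.275 CPM, and Isl1 +/- values between 0.142 and 0.540. In the double heterozygote Pcdhb20 was the only member with every library below every wild-type library, which held for 0.0798% of all tested genes (12). No member had all 18 libraries with 1 Nipbl allele below all 19 with 2, which held for 0.00665% of all tested genes (1).

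The other 5 called genes changed by a similar size. Pcdhb19 had 0.646 ± 0.242 CPM (SD, n = 10) in wild-type, 0.591 ± 0.208 (n = 9) in Isl1 +/-, 0.256 ± 0.109 (n = 9) in Nipbl +/- and 0.331 ± 0.119 (n = 9) in double-heterozygous hearts, and an averaged log2 change of -1.05 (SE 0.19, adjusted p = 7.32e-04). Pcdhb17 went from a wild-type median of 1.05 CPM, with values from 0.238 to 1.43, to Nipbl +/- and double-heterozygous medians of 0.494 and 0.377 (averaged log2 change -1.01, SE 0.23, adjusted p = 0.00719). Pcdhb14 had medians of 0.389, 0.358, 0.127 and 0.223 CPM in wild-type, Isl1 +/-, Nipbl +/- and double-heterozygous hearts, and Pcdhb18 had medians of 0.420, 0.363, 0.174 and 0.202 CPM in the same order. Their averaged log2 changes were -1.15 (SE 0.25, adjusted p = 0.00540) and -1.06 (SE 0.24, adjusted p = 0.00700), and -1.15 (adjusted p = 0.00918) and -1.07 (adjusted p = 0.0138) without the filter. Pcdhb5 was the weakest call, at -1.01 (SE 0.29, adjusted p = 0.0362), with medians of 0.273, 0.298, 0.140 and 0.251 CPM and groups that overlapped over most of their range. Its adjusted p was 0.0557 without the count filter.

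**Figure D2:**
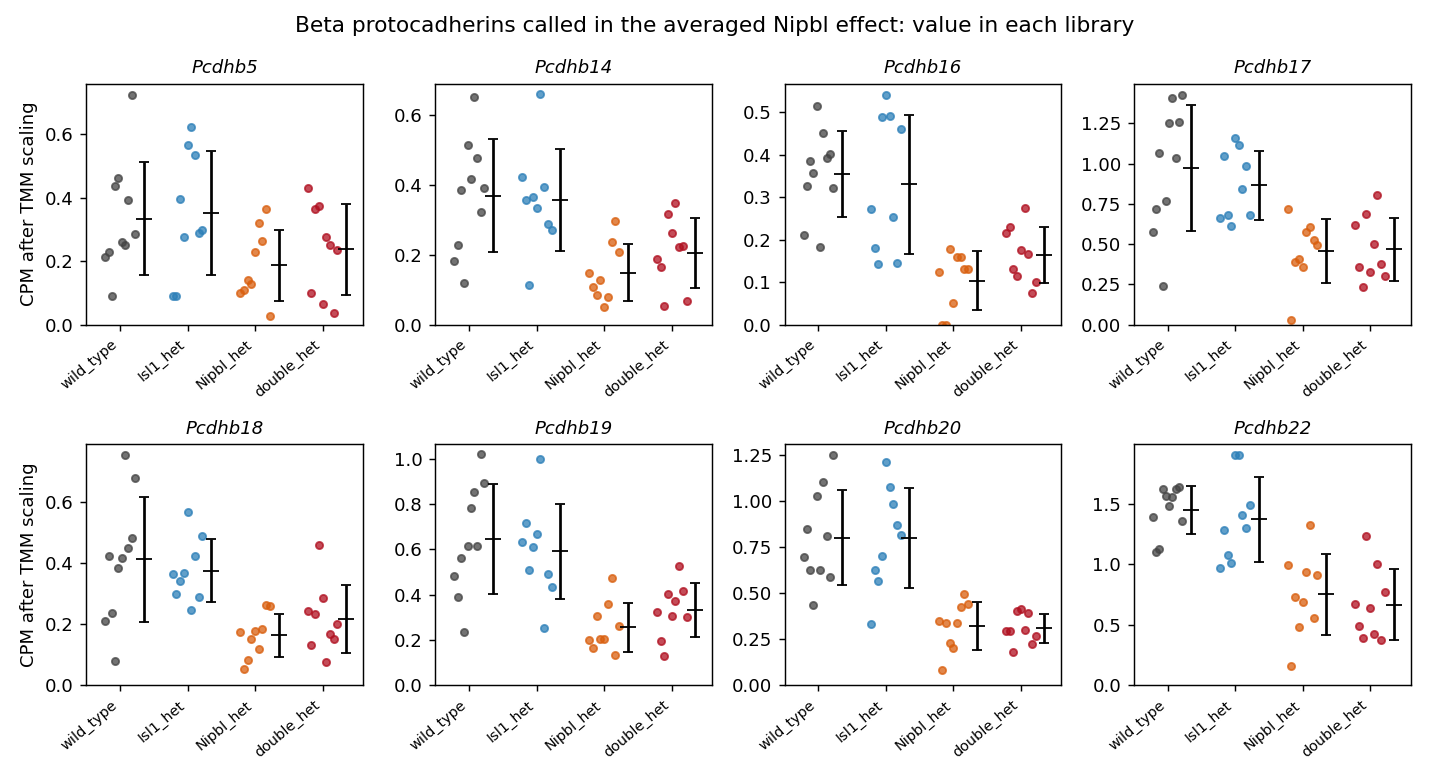
Level of the 8 called beta genes in each of the 37 libraries, in CPM after TMM scaling, with 1 point a library and the mean ± SD at the right of each genotype (n = 10, 9, 9 and 9). For Pcdhb20, 17 of the 19 libraries with 2 Nipbl alleles lie above all 18 libraries with 1.

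The 2 single contrasts against wild-type share their control libraries. In Nipbl +/- hearts 6 beta genes were lower (Pcdhb14, Pcdhb16, Pcdhb18, Pcdhb19, Pcdhb20 and Pcdhb22), where 1.71% of all tested genes were called, 0.518% lower and 1.2% higher, and Pcdhb17 had a log2 change of -1.11 at an adjusted p of 0.0518. Pcdhb14 lost this call without wild-type replicate 5 or Nipbl +/- replicate 3 (edgeR adjusted p up to 0.0708, log2 changes of -1.32 to -1.30). The fit without the filter called the same 6, where 1.09% of its genes were called, and all 19 beta genes were below 0 there, with a median of -1.09. In double-heterozygous hearts 2 were lower, Pcdhb20 and Pcdhb22, where 2.6% of all tested genes were called, 0.824% lower and 1.77% higher. More members were called there without the set term, in DESeq2 and with surrogate variables, as given under the processing. Without the filter the same 2 were called, where 1.48% of its genes were, and the median was -0.71 over 19 beta genes, of which 16 were below 0. The double heterozygote against Isl1 +/- shares no library with Nipbl +/- against wild-type, but both come from the same fit with the same set terms. In this contrast Pcdhb20 and Pcdhb22 were again lower, with 0.957% of all tested genes called, 0.425% lower and 0.532% higher. The unfiltered beta median was -0.80, with 17 of 19 below 0 and the same 2 genes called (0.563% of the genes of that fit). Without set 2 the counts against wild-type fell to 1 in Nipbl +/- hearts (Pcdhb20) and 0 in the double heterozygote. The count against Isl1 +/- was 1 without Isl1 +/- replicate 5 or 6 or double-heterozygous replicate 3, 6 or 8, and 0 without set 2 or set 5. The shares of all tested genes called in these fits are not given, nor are their log2 changes. These lower counts are therefore not read as a result about the members.

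Without Nipbl +/- replicate 2, 7 beta genes were lower in Nipbl +/- and 4 in the double heterozygote, Pcdhb16 and Pcdhb17 being added there. The shares of all tested genes called in these fits were also larger, 2.72% and 5.57%. Pcdhb5, Pcdhb14, Pcdhb16, Pcdhb18 and Pcdhb19 had smaller fitted falls in the double heterozygote than in Nipbl +/- (log2 changes of -0.71, -0.83, -1.23, -0.81 and -0.78 against wild-type), but the difference between the Nipbl effects in the 2 Isl1 genotypes was not called for any member. The interaction called 0 genes (0%) of all tested with edgeR, and 411 genes, no member among them, had an unadjusted p under 0.05. DESeq2 also called 0 genes. For these 5 genes the interaction estimates ran from 0.42 to 0.73 with standard errors of 0.35 to 0.53, and the unfiltered median over all 19 beta genes was 0.44. For Pcdhb20 and Pcdhb22 they were 0.00 (95% interval -0.60 to 0.61) and -0.03 (-0.69 to 0.63).

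Losing 1 Isl1 allele alone called no member, and 0 genes (0%) of all tested, with 886 at an unadjusted p under 0.05 and no member among them. Without the filter the beta median was 0.10. The double heterozygote against Nipbl +/- called 0 genes (0%) too, with 1355 genes at an unadjusted p under 0.05, Pcdhb7 (0.80, SE 0.36, adjusted p = 0.525) being the 1 member among them, and the unfiltered beta median was 0.18. DESeq2 with the same terms called 11 genes in the first and 0 in the second of these comparisons, and 0 members in either.

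The changes were uneven along the beta cluster. From Pcdhb14 to Pcdhb22, the end next to the gamma cluster, all 9 members had averaged log2 changes between -1.52 and -1.01 without the filter, including the sparse Pcdhb15 at -1.44 (SE 0.45, adjusted p = 0.0908) and Pcdhb21 at -1.25 (SE 0.46, adjusted p = 0.181). Over the 10 members before Pcdhb14 the median was -0.35, from -1.03 to 0.29. Pcdhb3 had -0.52 (SE 0.23, adjusted p = 0.246), Pcdhb4 -0.34 (SE 0.27, adjusted p = 0.633) and Pcdhb7 -0.67 (SE 0.26, adjusted p = 0.165), none of them called. Wild-type values of Pcdhb3 ran from 0.119 to 0.897 CPM and Nipbl +/- values from 0.137 to 0.764. The 6 other sparse genes before Pcdhb14 had changes from -0.72 (Pcdhb11, SE 0.56) to 0.29 (Pcdhb8, SE 0.62), with standard errors of 0.41 or more. The split at Pcdhb14 was chosen after these values were seen and was not tested.

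In levels, the 9 later genes summed to 5.28 ± 1.26 CPM (SD, n = 10) in wild-type, 4.92 ± 1.14 (n = 9) in Isl1 +/-, 2.32 ± 0.883 (n = 9) in Nipbl +/- and 2.47 ± 0.730 (n = 9) in double-heterozygous hearts. Of the 18 libraries with 1 Nipbl allele, 15 lay below all 19 libraries with 2, and 14 of 17 without Nipbl +/- replicate 2, when the Nipbl +/- mean was 2.53 ± 0.646 (n = 8). The 10 earlier genes summed to 1.76 ± 0.523, 2.03 ± 0.674, 1.33 ± 0.384 and 1.60 ± 0.380 CPM in the same order, with 2 of 18 libraries below all 19, and 1 of 17 without that library, when the Nipbl +/- mean was 1.42 ± 0.267 (n = 8). Spearman's rho between the averaged change and the order in the cluster was -0.65 over the 11 tested beta genes and -0.70 over all 19 without the filter, as a description of genes that share libraries. Between the change and the mean CPM it was 0.03 and -0.48. Pcdhb5, before the split, had a fitted change of -1.01, while its median over libraries with 1 Nipbl allele was 0.805 of that over libraries with 2. Pcdhb2, the first beta member, was too sparse to test, with wild-type values from 0 to 0.196 CPM and double-heterozygous values from 0 to 0.295.

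**Figure D3:**
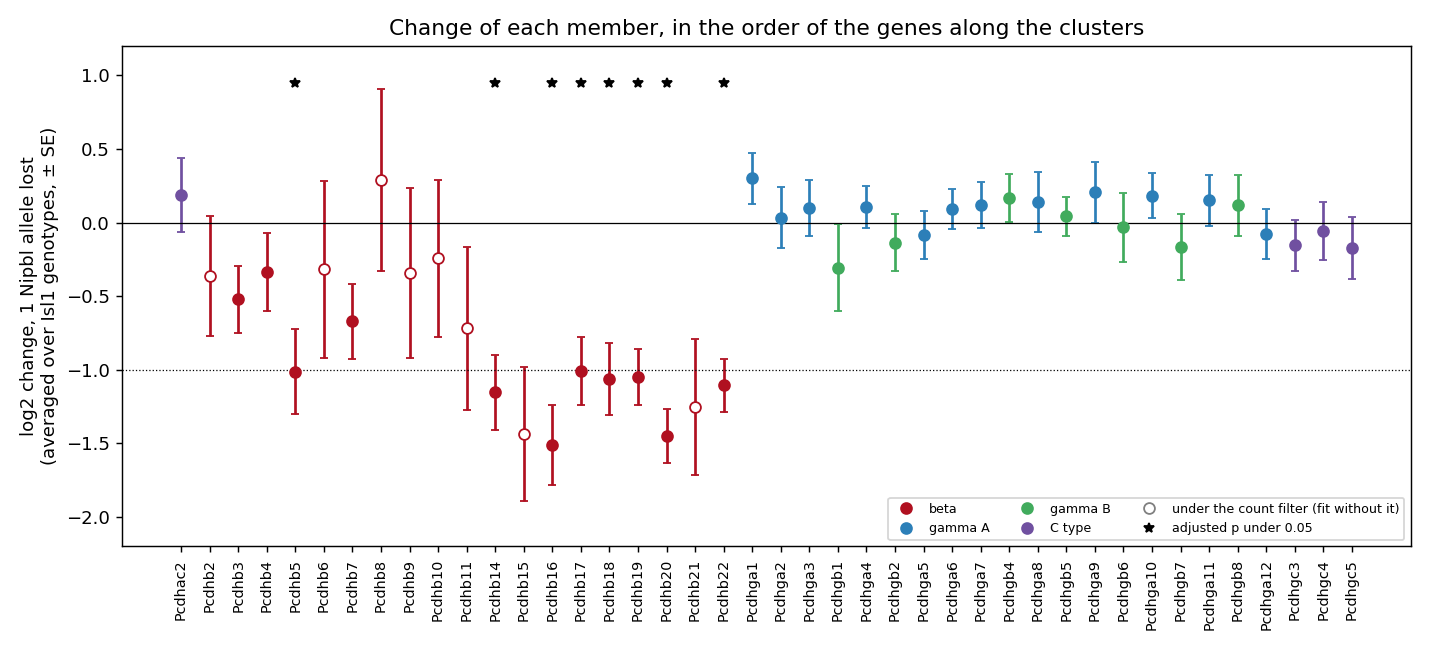
Log2 change on losing 1 Nipbl allele, averaged over both Isl1 genotypes, with its standard error, for the 42 members in the order of the genes along the clusters. Open points are the 8 members under the count filter, from the fit without it, stars mark an adjusted p under 0.05, and the dotted line marks a change of -1. Called genes are all beta genes, and gamma and C-type estimates lie between -0.31 and 0.30.

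Gamma genes, whose first member lies just beyond the last beta gene, had no call in any of the 7 comparisons with edgeR or DESeq2, and neither had the C-type genes. With edgeR 0 of these 23 genes had an unadjusted p under 0.05 in any of them. The median averaged log2 change was 0.11 over the 12 gamma A genes, -0.03 over the 7 gamma B genes and -0.11 over the 4 C-type genes, beside 0.01 over all tested genes. The smallest adjusted p among these 23 genes was 0.453. All 23 had 95% intervals that stayed above -1, the lowest bound being -0.90 for Pcdhgb1. In the single contrasts the lowest bounds, all of Pcdhgb1, were -1.01 for Nipbl +/- and -0.93 for the double heterozygote against wild-type, and -1.21 for the double heterozygote against Isl1 +/-. The last takes in the -1.12 of Pcdhb22 in that contrast. The called genes were picked for their change, and the intervals also take in smaller falls. The difference between beta and gamma as groups was not tested, since the genes were chosen with earlier results known.

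Pcdhga2 and Pcdhga10 had the highest mean CPM of the gamma A genes over all libraries. Pcdhga2 had 2.34 ± 1.12 CPM (SD, n = 10) in wild-type, 2.22 ± 1.07 (n = 9) in Isl1 +/-, 2.79 ± 1.46 (n = 9) in Nipbl +/- and 3.27 ± 1.08 (n = 9) in double-heterozygous hearts, with an averaged log2 change of 0.03 (SE 0.21) once the set was a term. Pcdhga10 had 1.99 ± 0.808 (n = 10), 2.29 ± 1.10 (n = 9), 2.80 ± 0.890 (n = 9) and 3.30 ± 1.13 CPM (n = 9) and a change of 0.18 (SE 0.15). The first gamma A gene, Pcdhga1, had 0.30 (SE 0.17, 95% interval -0.05 to 0.66), and the last, Pcdhga12, -0.08 (SE 0.17). The other 8 gamma A genes had changes from -0.08 (Pcdhga5) to 0.20 (Pcdhga9). Wild-type values of Pcdhga1 ran from 0.151 to 0.886 CPM and Nipbl +/- values from 0.484 to 1.23.

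Of the gamma B genes, Pcdhgb6 had 1.82 ± 1.05 CPM (SD, n = 10) in wild-type and 2.28 ± 0.741 (n = 9) in Nipbl +/- hearts, with an averaged log2 change of -0.03 (SE 0.23), and Pcdhgb4 had 1.48 ± 0.537 (n = 10) and 2.26 ± 0.619 (n = 9), with 0.17 (SE 0.17). Pcdhgb1, the first of them, had -0.31 (SE 0.29) and Pcdhgb8, the last, 0.12 (SE 0.21). The widest interval of the group was that of Pcdhgb1, from -0.90 to 0.29, and Pcdhgb2, Pcdhgb5 and Pcdhgb7 had -0.14, 0.04 and -0.17.

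Of the C-type genes, Pcdhgc3 ran from 15.7 to 77.4 CPM in wild-type libraries with a median of 34.5, from 19.3 to 77.3 in Isl1 +/- with a median of 43.2, from 25.4 to 83.0 in Nipbl +/- with a median of 60.3, and from 11.3 to 80.8 in double-heterozygous libraries with a median of 64.2. The groups overlapped almost entirely, and the averaged log2 change was -0.16 (SE 0.17, adjusted p = 0.761). Pcdhgc4 had 1.12 ± 0.519 CPM (n = 10) in wild-type and 1.37 ± 0.539 (n = 9) in Nipbl +/- hearts, with -0.06 (SE 0.20). Pcdhgc5 had 0.936 ± 0.483 (n = 10) and 0.912 ± 0.365 CPM (n = 9), with -0.17 (SE 0.21). Pcdhac2, the 1 alpha-cluster gene that was tested, had 1.68 ± 0.847 (n = 10) and 2.46 ± 1.18 CPM (n = 9), with 0.19 (SE 0.25, 95% interval -0.33 to 0.70).

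The gamma genes differed between sets, which the beta genes were not shown to do. The set term was called for 12 of 12 gamma A, 5 of 7 gamma B, 3 of 4 C-type and 0 of 11 beta genes, where it was called for 38.2% of all genes. The tested beta genes held from 318 (Pcdhb16) to 1416 (Pcdhb22) counts over all libraries. Pcdhgb1 and Pcdhgb8, the gamma B genes without this call, held 558 and 448, and Pcdhga8, which was called, held 886. The part of the number of counts in this difference was not tested. Pcdhgc3 had a median of 25.7 CPM over the 6 libraries of set 1, 34.0 over 9 in set 2, 64.0 over 14 in set 5 and 69.5 over 7 in set 6. Levels that take no account of the set were higher in the groups with 1 Nipbl allele. Gamma A summed to 15.6 ± 6.61 CPM (n = 10) in wild-type, 17.2 ± 6.17 (n = 9) in Isl1 +/-, 21.1 ± 7.14 (n = 9) in Nipbl +/- and 22.9 ± 6.79 (n = 9) in double-heterozygous hearts. Set 1 held no library with 1 Nipbl allele, and without set 1 these sums were 17.5 ± 6.99 (n = 7), 20.7 ± 4.09 (n = 6), 21.1 ± 7.14 (n = 9) and 22.9 ± 6.79 CPM (n = 9). Without the set term the median averaged log2 change of the gamma A genes was 0.44, where it was 0.11 with it, and 0 gamma genes were called either way. What the set stands for is not stated.

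Within sets the beta medians stayed below 0. The median over all 19 beta genes of the difference in mean log2 CPM between Nipbl +/- and wild-type was -0.87 in set 2, -0.63 in set 5 and -0.72 in set 6, and 16, 15 and 18 of 19 were below 0. In set 5 it was -0.52 without Nipbl +/- replicate 2. Between double heterozygote and wild-type it was -1.02, -0.43 and -0.54, with 16, 11 and 16 of 19 below 0. Between double heterozygote and Isl1 +/- it was -0.70, -0.69 and -0.55, with 15, 17 and 15 of 19 below 0. Set 6 held 1 double-heterozygous and 1 Isl1 +/- library. Over the 23 gamma and C-type genes the medians were 0.17, 0.56 and -0.38 for Nipbl +/- against wild-type, -0.30, 0.62 and 0.13 for the double heterozygote against wild-type, and -0.62, 0.16 and 0.42 for the double heterozygote against Isl1 +/-, of differing sign in each comparison. In set 2 the gamma and C-type genes of the double heterozygote were thus below those of Isl1 +/- as well, over 2 libraries of each group, and in set 5 all 23 were above wild-type in both groups with 1 Nipbl allele (all but 1 in Nipbl +/- without replicate 2). Isl1 +/- hearts, with 2 Nipbl alleles, were also mostly above wild-type in set 5, with a median of 0.47 and 2 of 23 below 0. Their medians were 0.54 in set 2, -0.05 in set 1 and -0.10 in set 6, with 3, 14 and 16 of 23 below 0. Set 1 held no library with 1 Nipbl allele and gives no value for the comparisons of Nipbl alleles.

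**Figure D4:**
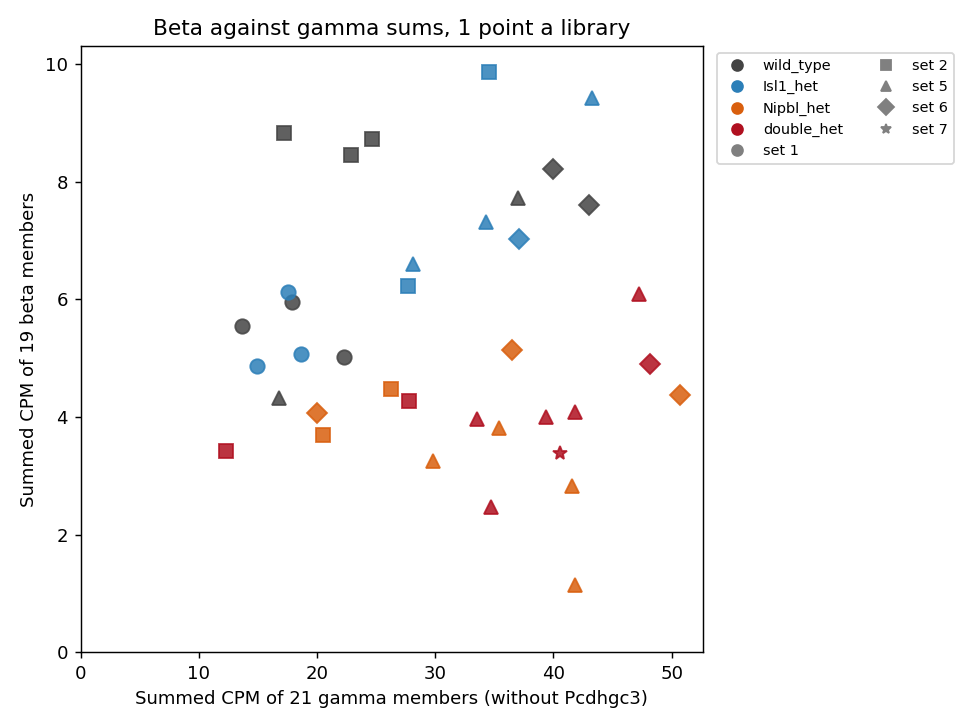
Summed CPM of the 19 beta members against the summed CPM of the 21 gamma members other than Pcdhgc3, 1 point a library, coloured by genotype and shaped by set. Libraries with 1 Nipbl allele lie at 1.15 to 6.09 CPM of beta over the whole range of gamma, or from 2.48 without Nipbl +/- replicate 2, and set 1 lies at the low end of the gamma axis.

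Set against the gamma genes of the same library, beta counts came to 30.5 ± 10.8 CPM per 100 CPM of gamma without Pcdhgc3 (SD, n = 10) in wild-type and 25.7 ± 5.45 (n = 9) in Isl1 +/- hearts, and to 12.1 ± 5.71 (n = 9) in Nipbl +/- and 12.6 ± 6.21 (n = 9) in double-heterozygous hearts. The highest of the 18 libraries with 1 Nipbl allele had 27.8 and the lowest of the 19 with 2 had 17.7, and 15 of 18 were below it. Nipbl +/- replicate 2 was lowest, at 2.74, and without it the Nipbl +/- mean was 13.3 ± 4.80 (n = 8), with 14 of 17 libraries below the lowest with 2 alleles. With no account of the set, the median over libraries with 1 Nipbl allele, divided by that over libraries with 2, was 0.57 for the beta sum, 1.46 for the gamma sum and 0.423 for the ratio. Set 1, with the lowest gamma levels, held only libraries with 2 Nipbl alleles, and 0 gamma genes were called with the set as a term.

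Genes that act on the clusters or with their proteins were read from lists, as counts of called genes beside the same background. Of 17 genes of cohesin, CTCF and their regulators, Nipbl was lower (averaged log2 change -0.80, SE 0.09, adjusted p = 4.35e-07 in edgeR) and Stag1, a cohesin subunit, higher (0.25, SE 0.07, adjusted p = 0.0311), with a list median of 0.01. Of 14 chromatin repressors, among them Smchd1 and Setdb1, and of 15 intracellular partners, among them Ptk2, 0 were called in any comparison with edgeR or DESeq2. With edgeR 4.02% of all tested genes were called in the averaged comparison and fewer in each other one. For lists of this size 0 calls are near that share. At an unadjusted p under 0.05 the averaged comparison held 0 of the repressors and 2 of the partners in either tool.

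Of 19 genes flanking the clusters or lying between them only Rell2, beyond the gamma end, was called, 1 of 19 where 4.02% of all tested genes were. Its wild-type values ran from 0.151 to 0.445 CPM, its Isl1 +/- values from 0.103 to 0.328, its Nipbl +/- values from 0.265 to 2.73 and its double-heterozygous values from 0.197 to 0.417. The averaged log2 change was 0.95 (SE 0.26, adjusted p = 0.0303 in edgeR), and 0.70 (SE 0.16, adjusted p = 0.00382) without Nipbl +/- replicate 2, the library with the highest value. It was also the only gene called among the 10 tested neighbours nearest the clusters, 5 on either side. No flanking gene was called lower.

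Of 8 lists of cell type markers, 5 had 0 genes called in the averaged comparison and 3 had some, against the same 4.02%. Of 5 epicardial markers 3 were higher on average (Wt1 by 0.42, Upk1b by 0.37 and Upk3b by 0.31 on the log2 scale), and the summed level ran from 222 to 382 CPM in wild-type, 265 to 467 in Isl1 +/-, 352 to 495 in Nipbl +/- and 433 to 569 in double-heterozygous libraries. It was above the highest wild-type library in 7 of 9 Isl1 +/-, 8 of 9 Nipbl +/- and 9 of 9 double-heterozygous libraries. Without Nipbl +/- replicate 2 Tbx18 was called as well (0.24, adjusted p = 0.0200 in edgeR), and Wt1, Upk1b, Upk3b, Tubb3, Nefl and Col1a1 kept their calls. Of 9 neuronal markers 8 were tested and Tubb3 (0.49) and Nefl (0.25) were higher. Their summed level ran from 42.7 to 71.2, 37.2 to 59.3, 42.1 to 73.7 and 44.9 to 71.7 CPM in the same order. Of 5 cushion mesenchyme markers Col1a1 was lower (-0.65), with summed levels of 187 to 487, 255 to 441, 221 to 449 and 251 to 381 CPM. The Isl1 gene itself was higher (0.65, SE 0.15, adjusted p = 0.00655 in edgeR). In the averaged comparison 0 tested markers of cardiomyocytes (8), neural crest and glia (5), endothelium and endocardium (6), erythroid cells (5) or foregut endoderm and liver (4) were called by edgeR or DESeq2, and 0, 0, 1, 0 and 1 had an unadjusted p under 0.05 in edgeR. Foregut and liver markers summed to at most 15.0 CPM in wild-type and to 340 CPM in Nipbl +/- replicate 9. The part of these marker differences in the beta result was not tested.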

How the data were processed

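Whole-heart RNA libraries of 37 embryos at day 10.5 were analysed. The deposited file holds unnormalized read counts, 1 column a library and 1 line a gene symbol, with 0 further value columns. Per the submitters' processing notes STAR, featureCounts, GRCm38 and mm10 were used; versions, annotation, strand setting and the treatment of multi-mapping or overlapping reads are not given in the sources used here, so reads shared by neighbouring or antisense genes cannot be told apart. Counts of the 153 pairs of replicates within a genotype differed by a chi-square per degree of freedom of at least 7.38, so no replicate was a copy of another of its group. Labels do not say whether embryos share a litter, so p-values measure the spread between these samples.

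Groups came from the titles. Genes were filtered with filterByExpr (minimum count 10, minimum total 15, by genotype), scaled by TMM and fitted with edgeR 4.0.16 (R 4.3.3, limma 3.58.1), with genotype and set as factors; 15046 genes were tested in 7 two-sided contrasts. Set 7 holds only double-heterozygous replicate 2, which its term fits exactly, so tests of that group rest on 8 libraries. Standard errors come from the F statistic. CPM use effective library sizes; log2 CPM for within-set differences used a prior count of 2. Exon lengths and shared 100-base windows come from GENCODE M21 on GRCm38. The fit was also run on simulated counts drawn without set differences, so that run does not bear on the set terms. Reads have no molecular identifiers, so floors (3 counts) cover counting error only.

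Members, gene lists and tests were chosen with earlier results of these data known. Named members were those called in any contrast, the 2 with the highest mean CPM of each subcluster, the C-type genes, and the first and last of each subcluster; others are named as comparison or after their values were seen. Non-members named were list genes called in a Nipbl contrast, Nipbl and Isl1. Alternatives were no set term, the title's replicate number in place of the set, DESeq2 1.42.0, DESeq2-style size factors, no count filter, a floor of 10 counts in each of the libraries, sva 3.50.0 with 2 surrogate variables, sets 1, 2, 5 and 6 left out, each library left out, total exon length, and medians in place of sums. Figures used matplotlib 3.10.9.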

Additional observations from a re-analysis of the deposited data

How the results depend on the processing

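In the averaged Nipbl comparison between 7 and 8 members were called with any 1 library left out, 4 without set 2 (Pcdhb7, Pcdhb16, Pcdhb20 and Pcdhb22) and 0 when every library had to hold at least 10 counts, a filter that left 14 members and 0 beta genes. That filter gave 0 in the 3 other Nipbl contrasts too. Without set 2 there was 1 member in Nipbl +/- against wild-type, 0 in the double heterozygote against wild-type and 0 against Isl1 +/-. Against wild-type, the double heterozygote had 4 members without the set term, 4 in DESeq2, 5 with surrogate variables and 4 without Nipbl +/- replicate 2 (range with 1 library left out 2 to 4), and 5 to 7 were called in Nipbl +/-. Among the alternatives, shares of all tested genes called are given only for the fits without the filter and without that library. The other counts here have no such background and are not read as a result about the members. Against Isl1 +/- it had 1 without set 1 and 0 without set 5, and between 1 and 2 with 1 library left out, the lower number without Isl1 +/- replicate 5 or 6 or double-heterozygous replicate 3, 6 or 8. Pcdhb5 lost its averaged call in 12 of the 37 omissions, at adjusted p values from 0.0502 to 0.0904. Pcdhb14 lost its Nipbl +/- call without wild-type replicate 5 or Nipbl +/- replicate 3 (adjusted p up to 0.0708).

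The same title number did not pair libraries (median correlation of deviations 0.03 over 54 pairs, 17 of them over 0.1). With other title numbers the median was -0.01 over 459 pairs, 152 of them over 0.1. Libraries of the same set had a median of 0.13 over 127 pairs, 71 of them over 0.1. Those of other sets had -0.04 over 386 pairs, 98 of them over 0.1. With the title number as a replicate block in place of the set, 7 members were called in the averaged comparison and 6, 2 and 2 in the single ones. The share of all tested genes called in that fit is not given either.

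No named gamma or C-type gene was called under any alternative, and several averaged log2 changes crossed 0. Without the set term they were 0.0249 for Pcdhgb1, 0.33 for Pcdhgb6, 0.22 for Pcdhga12, 0.32 for Pcdhgc3, 0.20 for Pcdhgc4 and 0.0618 for Pcdhgc5, and with the replicate block 0.00628, 0.40, 0.22, 0.38, 0.21 and 0.0884 for the same genes. Surrogate variables gave -0.0295 for Pcdhga2 and 0.0132 for Pcdhgb6. Without set 2 they were 0.11 for Pcdhgb6, 0.0180 for Pcdhga12, 0.0701 for Pcdhgc3, 0.10 for Pcdhgc4 and 0.0485 for Pcdhgc5. Without set 5 they were -0.17 for Pcdhac2, -0.19 for Pcdhga2, -0.00169 for Pcdhgb4 and -0.0052 for Pcdhgb8, and without set 6 0.0231 for Pcdhgb6 and 0.00596 for Pcdhgc5. With 1 library left out Pcdhga2 ran from -0.0393 to 0.11 (-0.0129 without Nipbl +/- replicate 2), Pcdhgb6 from -0.13 to 0.0752 and Pcdhgc4 from -0.16 to 0.0265. The median over beta members of log2 CPM gave -0.39 for the double heterozygote against wild-type where sums gave -0.79. A prior count pulls such differences towards 0, and its part here was not tested. With total exon length the wild-type medians were 0.255 CPM per kb for gamma A and 0.243 for C-type genes. The causes of the shifts in log2 change were not tested. Few counts limit the sparse beta genes.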
